A study of Homo sapiens with 4 samples.

Results

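The Krüppel-like factors (KLF) are transcription factors, and the 10 described here are KLF2, KLF3, KLF4, KLF5, KLF6, KLF7, KLF9, KLF10, KLF11 and KLF13. They were taken by gene symbol from a table of 48162 genes counted by RNA sequencing, and each of the 10 had 1 row. The labels of all libraries name the line MDA-MB-453, human breast cancer cells described as luminal. In 2 libraries TMEM9, whose product sits in the membrane of lysosomes and endosomes, had been knocked down (TMEM9 KD), and 2 libraries were from wild type cells (WT). The labels name neither the means of knockdown nor whether the knockdown cells were a clone or a pool. The comparison asks how transcript levels differ when TMEM9 is reduced.

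KLF proteins carry 3 zinc fingers at the C-terminal end, by which they bind GC boxes and CACCC boxes in DNA. The regions outside the fingers differ and recruit different partners. KLF1, KLF2, KLF4, KLF5, KLF6 and KLF7 act largely as activators through histone acetyltransferases. KLF3, KLF8 and KLF12 repress through the C-terminal binding protein (CtBP), and KLF9, KLF10, KLF11, KLF13, KLF14 and KLF16 bind the corepressor SIN3A. In epithelia KLF4 is linked to differentiation and KLF5 to proliferation, and several members are rapidly induced by serum, growth factors, steroids or shear stress.

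TMEM9 itself had 51 and 78 counts in the TMEM9 KD libraries and 1120 and 1497 in the WT libraries. Totals per library ran from 15323843 to 18517337 counts, and mitochondrially encoded transcripts took 3.18% and 2.83% of them in TMEM9 KD against 3.98% in each WT library. Levels below are CPM (counts scaled to library size, here with TMM factors), changes are log2 fold changes of TMEM9 KD over WT, and p-values are from the quasi-likelihood test of edgeR, adjusted over 14923 genes with a threshold of 0.05. Of the markers listed for MDA-MB-453, 10 were tested, 4 rose and 4 fell, or 2 fell without WT replicate 2 or with library size as the only scaling. ERBB2 averaged 54.4 CPM in TMEM9 KD and 63.7 CPM in WT. DHRS2, FOXA1, GATA3 and KRT18 rose, with log2 fold changes of 3.08, 1.48, 1.29 and 0.45, while XBP1 fell (-0.40). CLCA2 fell to 15 and 26 counts in the TMEM9 KD libraries, against 1022 and 1081 in the WT libraries. PIP had no count in any library, and SPDEF, TFAP2B, TFF3 and KRT19 stayed below 0.3 CPM in both groups. These markers were thus nearly absent although they are listed for the line that the labels name. The identity of the line was not tested. Of the collagen genes listed as fibroblast markers, COL1A1 was at 1387 CPM in TMEM9 KD and 824 CPM in WT, and COL3A1 at 31.1 CPM in TMEM9 KD and 957 CPM in WT. Whether libraries were made from separate cultures is not labelled, so the p-values reflect a spread that may be technical only. Neither can fewer cells with a transcript be told apart from less RNA per cell in such bulk samples.

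Of the 10 members, 5 rose in TMEM9 KD (KLF2, KLF11, KLF4, KLF6 and KLF7) and 5 fell (KLF10, KLF3, KLF9, KLF13 and KLF5). This was against a background in which 57.7% of all genes tested were called, 28.7% higher and 29% lower. In all 10 the TMEM9 KD and WT libraries did not overlap, as in 77.6% of the genes tested. Changes of at least 2-fold were found for KLF2 and KLF11, both upward, where 7.24% of genes tested rose that much and 10.1% fell that much. In a test against a change of 1.5-fold, which called 18.8% of all genes, 2 members were higher (KLF2 and KLF11) and 1 was lower (KLF10). The median log2 fold change of the members was 0.04, beside 0.01 over all genes tested, and their median absolute change was 0.47, beside 0.38. The summed level of the members was 494 and 502 CPM in the TMEM9 KD libraries and 521 and 534 CPM in the WT libraries, so opposite changes took place within a similar total. The plot of levels by library shows each member.

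**Figure D1:**
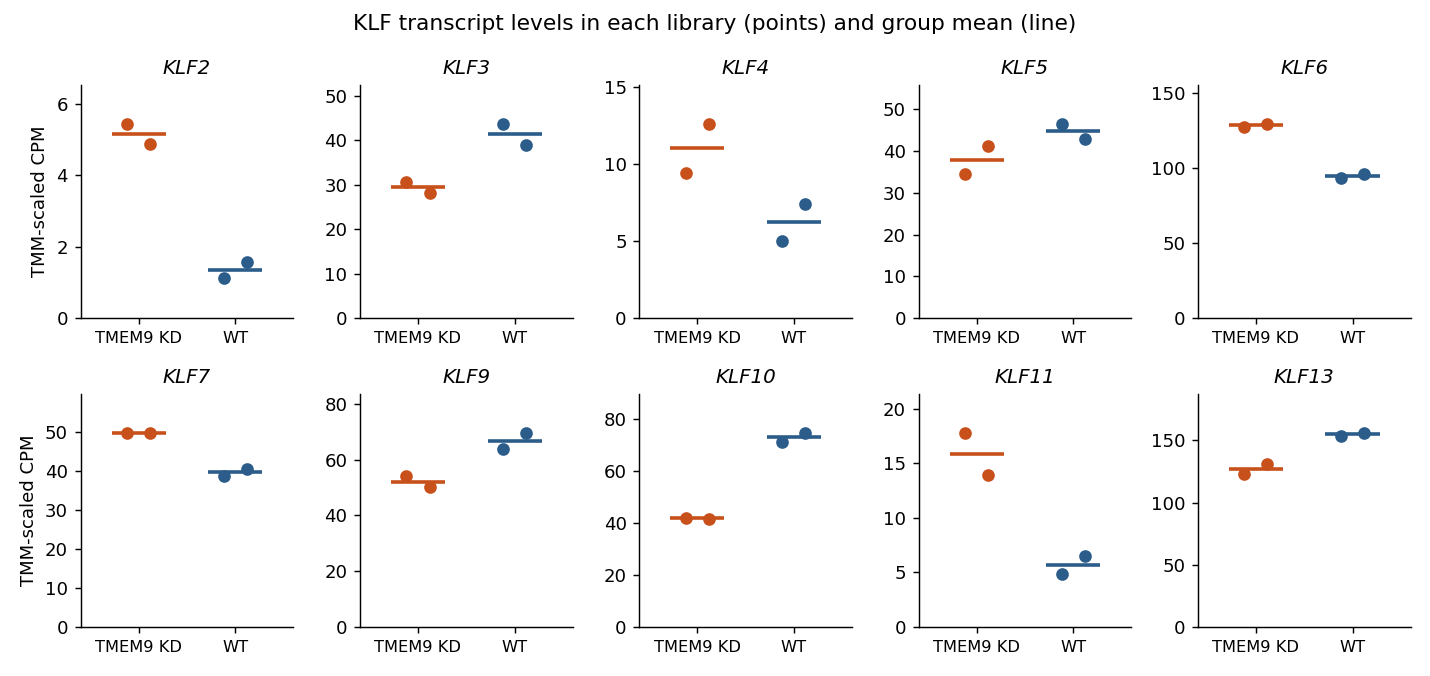
Levels of the 10 KLF transcripts (vertical axes from 0, in TMM-scaled CPM) in the TMEM9 KD and WT libraries, with points for libraries and a line at the mean of the 2. KLF2 and KLF11 stand highest in TMEM9 KD relative to WT, and KLF10 lowest.

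Among the activators, KLF2 had the largest change. KLF2, known for its induction by shear stress in endothelium and for keeping T cells quiescent, had 89 and 85 counts in TMEM9 KD and 17 and 28 in WT. Its levels were 5.44 and 4.87 CPM in TMEM9 KD, against 1.14 and 1.56 CPM in WT. Both knockdown libraries were thus well above both wild-type libraries, although KLF2 was the least abundant member and the only one with fewer than 50 counts in a library. The log2 fold change was 1.91 (SE 0.298, edgeR adjusted p = 3.10e-08), a 3.77-fold higher level, and its size exceeded that of 92.7% of the genes tested.

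KLF4, a pluripotency factor that also drives terminal differentiation of surface epithelia, was at 9.41 and 12.6 CPM in TMEM9 KD and at 5.02 and 7.40 CPM in WT. The libraries of each group were spread widely, and the lower knockdown library was 2.01 CPM above the higher wild-type library. KLF4 rose by a log2 fold change of 0.81 (SE 0.178, edgeR adjusted p = 5.05e-05). KLF6, a ubiquitous factor induced early after injury, was at 127 and 129 CPM in TMEM9 KD, against 93.0 and 96.0 CPM in WT. The replicates lay close together, and KLF6 rose 1.36-fold (log2 fold change 0.44, SE 0.0685, adjusted p = 3.40e-08). KLF7, the closest relative of KLF6 and a factor of neuronal differentiation in mice, was at 49.8 and 49.7 CPM in TMEM9 KD and 38.8 and 40.6 CPM in WT. KLF7 rose by a log2 fold change of 0.33 (SE 0.0885, edgeR adjusted p = 0.000983), a call that ended without WT replicate 1 (log2 fold change 0.29, adjusted p = 0.0556).

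KLF5, which promotes proliferation of basal and intestinal epithelium, went the other way from the other 4 activators. It had 34.5 and 41.1 CPM in TMEM9 KD and 46.5 and 42.9 CPM in WT, so that one knockdown library came within 1.81 CPM of a wild-type library. The log2 fold change was -0.24 (SE 0.093, edgeR adjusted p = 0.0222), smaller in size than in most genes, since only 34.8% of those tested changed less. This call was the weakest of the 10. It ended with library size as the only scaling (adjusted p = 0.119), in DESeq2 (0.0975), without WT replicate 1 (0.243) and without TMEM9 KD replicate 1 (log2 fold change -0.11, adjusted p = 0.31).

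The CtBP-binding repressor among the members, KLF3, fell. KLF3, a repressor of adipocyte differentiation in mouse cells, was at 30.5 and 28.2 CPM in TMEM9 KD and at 43.7 and 38.9 CPM in WT. Each knockdown library was below each wild-type library, with a log2 fold change of -0.49 (SE 0.0975, edgeR adjusted p = 8.97e-06).

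The SIN3A-binding members split. KLF10, first described as the early gene of transforming growth factor beta (TIEG1), fell to 42.0 and 41.6 CPM in TMEM9 KD, against 71.0 and 74.7 CPM in WT. This was the largest decrease among the members, with a log2 fold change of -0.80 (SE 0.0825, edgeR adjusted p = 1.07e-14), and the spread within each group was small beside it. KLF11, its closest relative and likewise induced by transforming growth factor beta, had 17.8 and 13.9 CPM in TMEM9 KD and 4.82 and 6.51 CPM in WT. The KLF11 libraries varied within each group, yet the lower knockdown library was still 2.14 times the higher wild-type library. The log2 fold change was 1.47 (SE 0.167, adjusted p = 6.49e-13), a 2.77-fold higher level.

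KLF9, induced by glucocorticoids and thyroid hormone, was at 54.1 and 50.3 CPM in TMEM9 KD and 64.0 and 69.8 CPM in WT. KLF9 fell by 0.36 on the log2 scale (SE 0.0815, edgeR adjusted p = 8.40e-05). KLF13, known as an activator of the chemokine gene for RANTES in T cells, was at 123 and 131 CPM in TMEM9 KD and 153 and 156 CPM in WT. KLF13 fell by 0.29 on the log2 scale (SE 0.0653, adjusted p = 9.84e-05). The decreases of KLF9 and KLF13 were modest, 1.28-fold and 1.22-fold, and in each gene the groups stood apart.

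**Figure D2:**
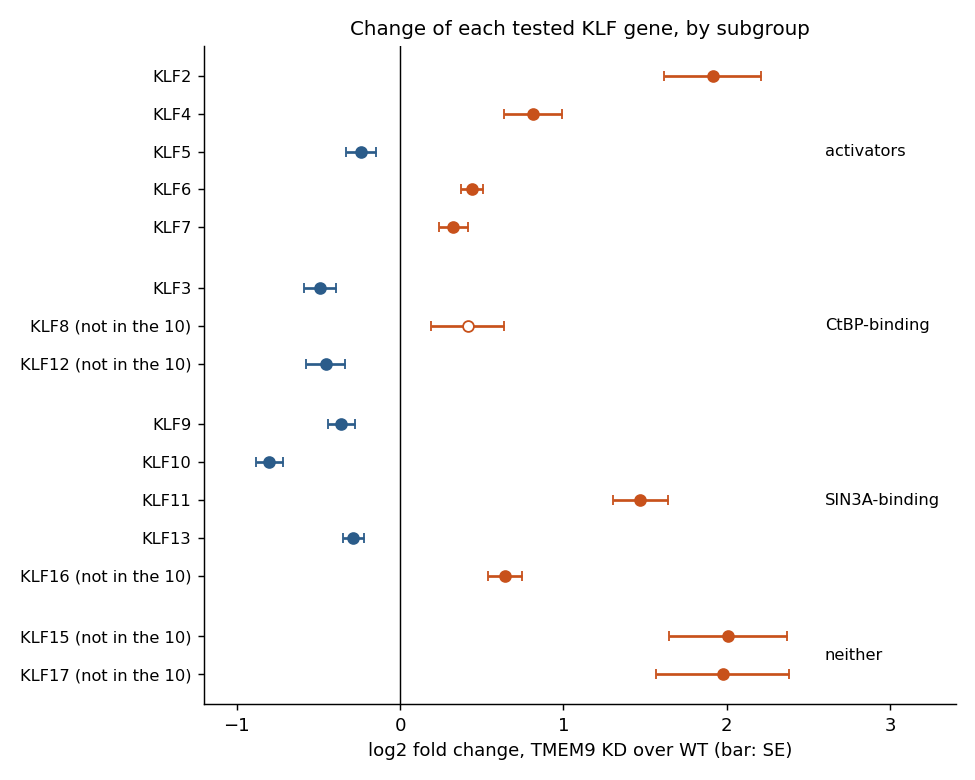
Log2 fold change of TMEM9 KD over WT for the 15 KLF genes tested (horizontal axis, bars show SE), grouped by subfamily, with filled points for an adjusted p below 0.05. KLF2, KLF15 and KLF17 lie near 2 and KLF10 is lowest at -0.80.

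The other KLF genes were few and mostly of low level. Of 8 other KLF genes listed, 6 had a row and 5 passed the expression filter (KLF14 and KLF18 were not analysed here). KLF15, a metabolic regulator of muscle and liver induced by glucocorticoids, had 64 and 56 counts in TMEM9 KD against 11 and 18 in WT, and rose 4.02-fold (edgeR adjusted p = 1.19e-06). KLF17, expressed in early human embryos, had 40 and 54 counts in TMEM9 KD against 11 and 12 in WT, and rose by 1.98 on the log2 scale (adjusted p = 1.72e-05). The SIN3A-binding KLF16 also rose, by 0.64 on the log2 scale (adjusted p = 5.74e-08), with 38.5 ± 3.94 CPM in TMEM9 KD and 24.7 ± 1.54 CPM in WT (SD, n = 2 each). The CtBP-binding KLF12 had 17.3 ± 0.617 CPM in TMEM9 KD and 23.8 ± 1.72 CPM in WT, and fell by 0.45 on the log2 scale (adjusted p = 0.000689). KLF8, of the same subgroup, did not pass the test, with 5.70 ± 1.26 CPM in TMEM9 KD and 4.29 ± 0.644 CPM in WT (log2 fold change 0.41, SE 0.224, adjusted p = 0.106). KLF1, the erythroid factor, had 1 count in all.

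Over the 15 KLF genes tested, 8 rose, 6 fell and 1 was not called, where 28.7% of all genes tested were higher and 29% lower. By subgroup, 4 of 5 activators rose and 1 fell. Of 3 CtBP-binding genes 2 fell, and of 5 SIN3A-binding genes 2 rose and 3 fell. These counts describe the family as it stands in these libraries, and no test of a subgroup against other genes was made. The plot of log2 fold changes by subgroup shows that the 4 genes with a change of at least 2-fold, KLF2, KLF11, KLF15 and KLF17, were all higher in TMEM9 KD. Each of the 4 was a transcript of low level in WT, at most 5.66 CPM on average.

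Levels of different members can be compared after division by exon length. In TMEM9 KD the most abundant transcript was KLF6, with 20.7 and 21.0 CPM per kilobase in the 2 libraries, followed by KLF13 with 13.1 and 13.9. KLF10, KLF9 and KLF5 came next in TMEM9 KD at means of 10.4, 10.1 and 9.70 CPM per kilobase, and neighbours among these 3 overlapped. In WT the order began with KLF10 at 17.7 and 18.7 CPM per kilobase, then KLF13 at 16.3 and 16.6, then KLF6 at 15.1 and 15.6. KLF10 thus ranked below KLF6 and KLF13 in TMEM9 KD, while in WT it ranked above both.

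The lower end of the order held KLF11, KLF4 and KLF2. In TMEM9 KD they had means of 3.46, 3.01 and 2.55 CPM per kilobase. There KLF4 overlapped with KLF11 above it and with KLF2 below it, while KLF11 stood apart from KLF3, the next higher member. In WT the same genes had 1.23, 1.70 and 0.668 CPM per kilobase, with KLF4 above KLF11 but overlapping with it, and KLF2 below both. KLF6 made up 24.9% and 25.0% of the summed length-scaled level of the 10 members in TMEM9 KD and 17.3% in each WT library. KLF10 made up 12.7% and 12.3% in TMEM9 KD and 20.2% and 20.7% in WT. Lengths are of all annotated exons, so a gene that uses few of them is set too low.

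**Figure D3:**
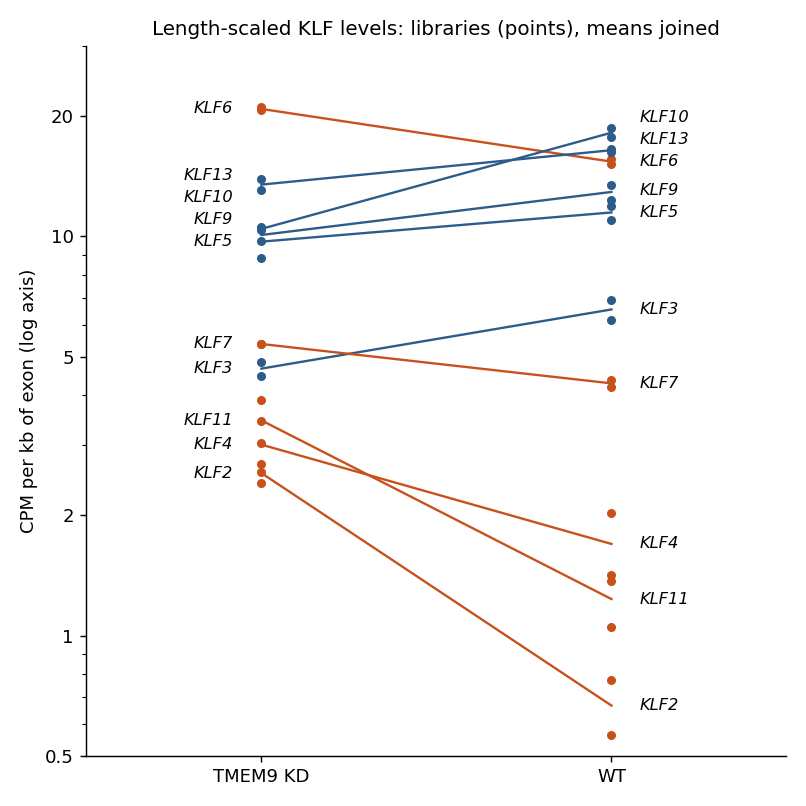
Length-scaled levels of the 10 members (log axis, CPM per kilobase of exon) in TMEM9 KD and WT, with points for libraries and lines joining the group means. KLF6 leads in TMEM9 KD and KLF10 in WT, and KLF2, KLF4 and KLF11 are the lowest 3 in both.

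A ratio of counts of 2 KLF genes within a library does not depend on how libraries are scaled to each other. Of 8 such ratios between relatives, chosen after their values were seen, 5 were higher in TMEM9 KD, 2 were lower and in 1 the groups overlapped. The KLF11 to KLF10 ratio was 0.424 and 0.335 in TMEM9 KD and 0.0679 and 0.0872 in WT, 4.90 times higher in the mean. The KLF2 to KLF4 ratio was 0.578 and 0.386 in TMEM9 KD, against 0.227 and 0.211 in WT. The KLF6 to KLF5 ratio was 3.69 and 3.15 in TMEM9 KD and 2.0 and 2.24 in WT. In these 3 pairs every knockdown library was above every wild-type library, so the genes of a pair changed unequally whatever the scaling. The same held for KLF16 to KLF13, both SIN3A-binding, with ratios of 0.291 and 0.316 in TMEM9 KD and 0.169 and 0.151 in WT.

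The KLF2 to KLF5 ratio, 0.158 and 0.118 in TMEM9 KD and 0.0245 and 0.0363 in WT, was likewise higher in both knockdown libraries.

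The other 3 ratios were of relatives that changed in the same direction, as KLF2 and KLF4 also did, and they differed less between the groups. The KLF7 to KLF6 ratio, of genes that both rose, was 0.393 and 0.385 in TMEM9 KD and 0.417 and 0.423 in WT, with both knockdown libraries below both wild-type libraries. The KLF9 to KLF13 ratio was 0.440 and 0.385 in TMEM9 KD and 0.418 and 0.447 in WT, with overlapping groups. The KLF3 to KLF12 ratio was 1.72 and 1.67 in TMEM9 KD and 1.75 and 1.72 in WT, where the mean in TMEM9 KD was 0.976 of that in WT and the groups stood narrowly apart, lower in TMEM9 KD. With 2 libraries in each group an exact permutation test, two-sided, cannot go below p = 0.333, so these ratios are given without a test.

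**Figure D4:**
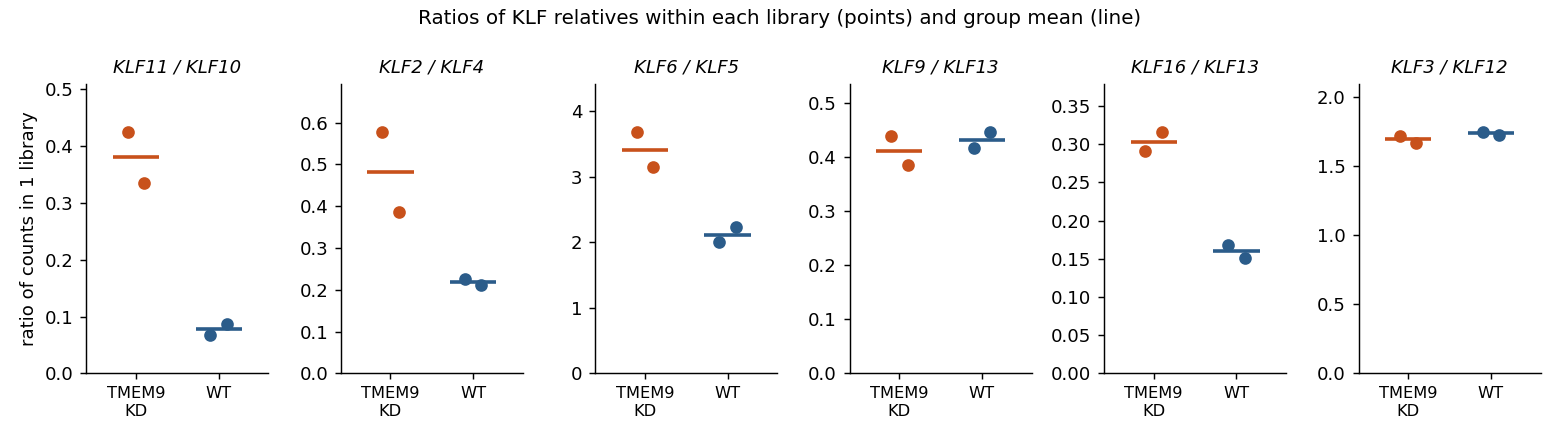
Ratio of the counts of 2 KLF relatives within each library, for 6 of the 8 pairs (vertical axes from 0, no unit) in TMEM9 KD and WT, with a line at the mean of the 2 libraries. KLF11 to KLF10, KLF2 to KLF4, KLF6 to KLF5 and KLF16 to KLF13 are higher in TMEM9 KD, while KLF9 to KLF13 overlaps.

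Sequences before an annotated start of 5 members are shown because these genes had the largest increases (KLF2, KLF11, KLF4) or fell within the SIN3A-binding subgroup (KLF9, KLF13). They are 250 bases before an annotated transcript start, from RefSeq on GRCh38.p14, read 5′ to 3′ on the strand of the gene. Where RefSeq gives several starts, as for KLF11, the first listed was taken. Such a window can cover part of a transcript that starts further upstream. The KLF11 window holds an ATG with open codons up to gtgagt, as in a coding exon and its splice donor. It may thus lie within the gene, which was not checked. The positions are chr19:16324576-16324825 on the plus strand, chr9:107489770-107490019 on the minus strand, chr2:10043579-10043828 on the plus strand, chr9:70414658-70414907 on the minus strand and chr15:31326585-31326834 on the plus strand. Capitals mark GC boxes (GGGCGG) and CACCC boxes (CACCC), the elements that KLF proteins bind, on either strand, and the 2 kinds can overlap.
KLF2: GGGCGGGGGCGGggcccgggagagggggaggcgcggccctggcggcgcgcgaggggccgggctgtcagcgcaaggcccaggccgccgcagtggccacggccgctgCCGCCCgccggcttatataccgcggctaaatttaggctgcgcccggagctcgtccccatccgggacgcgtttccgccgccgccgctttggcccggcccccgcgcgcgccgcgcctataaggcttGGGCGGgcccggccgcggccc
KLF4: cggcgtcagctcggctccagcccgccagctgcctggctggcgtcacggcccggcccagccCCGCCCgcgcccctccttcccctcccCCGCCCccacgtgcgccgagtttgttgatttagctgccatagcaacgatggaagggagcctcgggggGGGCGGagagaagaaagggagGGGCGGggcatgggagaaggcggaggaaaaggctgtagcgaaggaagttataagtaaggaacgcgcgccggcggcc
KLF11: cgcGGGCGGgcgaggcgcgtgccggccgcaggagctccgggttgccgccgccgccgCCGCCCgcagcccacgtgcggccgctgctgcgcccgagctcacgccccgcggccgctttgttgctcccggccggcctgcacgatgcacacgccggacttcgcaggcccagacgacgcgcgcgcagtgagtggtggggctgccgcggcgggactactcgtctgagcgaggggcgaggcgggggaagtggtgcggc
KLF9: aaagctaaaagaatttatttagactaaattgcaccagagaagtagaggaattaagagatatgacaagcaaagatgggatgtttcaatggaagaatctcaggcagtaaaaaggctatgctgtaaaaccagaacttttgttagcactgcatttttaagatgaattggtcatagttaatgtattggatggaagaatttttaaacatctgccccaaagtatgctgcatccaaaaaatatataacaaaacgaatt
KLF13: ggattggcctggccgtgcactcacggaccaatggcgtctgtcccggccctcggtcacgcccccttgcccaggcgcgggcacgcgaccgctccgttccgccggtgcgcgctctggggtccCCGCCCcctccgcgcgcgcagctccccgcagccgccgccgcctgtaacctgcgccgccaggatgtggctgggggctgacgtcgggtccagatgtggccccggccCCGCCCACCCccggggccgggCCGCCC
The KLF2 window held 4 GC boxes, KLF4 4, KLF11 2, KLF13 3 and KLF9 none. The window before the second KLF11 start held 6 GC boxes and 1 CACCC box, so the KLF11 count depends on the start taken. Of 35116 such windows of all genes, 42.6% held a GC box and 54.7% a CACCC box. Over 13 windows of the 8 members found in the RefSeq table (KLF3 and KLF10 were not among them), 8 held a GC box and 6 a CACCC box. GC content was 80.0% in KLF2, 69.2% in KLF4, 78.8% in KLF11 and KLF13 and 32.4% in KLF9, beside a median of 58.0% over all windows. The window of KLF13, which fell, was thus GC-rich like those of KLF2, KLF4 and KLF11, which rose, although that of KLF11 may hold exon sequence. A match is a string of letters, and binding was not measured.

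Partners of KLF proteins went both ways. Of 12 cofactors tested, 3 rose and 2 fell, with a median log2 fold change of 0.07. Fewer cofactors were called higher without either WT replicate, and more without TMEM9 KD replicate 2. Beside the cofactors and the lists below, 57.7% of all genes tested were called, 28.7% higher and 29% lower. The acetyltransferase genes CREBBP and EP300 rose, CREBBP with 150.6 ± 1.76 CPM in TMEM9 KD and 97.5 ± 0.91 in WT (SD, n = 2 each) and EP300 with a log2 fold change of 0.21. CTBP1, the corepressor of KLF3, KLF8 and KLF12, rose to 164 ± 10.8 CPM in TMEM9 KD, against 109 ± 0.554 CPM in WT (edgeR adjusted p = 5.23e-13). SIN3A was at 113 ± 2.61 CPM in TMEM9 KD and 104 ± 3.21 CPM in WT and did not pass the test (adjusted p = 0.11). The deacetylase gene HDAC3 and the acetyltransferase gene KAT2B had log2 fold changes of -0.34 and -0.39, and both fell.

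The SP genes encode the other proteins with this type of zinc fingers and compete for GC boxes. Of 9 SP genes, 6 were tested, 1 rose (SP4, log2 fold change 0.49) and 1 fell (SP1, -0.17). SP1 had 127 ± 3.42 CPM in TMEM9 KD and 143 ± 2.27 CPM in WT (SD, n = 2 each, edgeR adjusted p = 0.0209). SP3 did not pass the test, with 112 ± 11.6 CPM in TMEM9 KD and 120 ± 3.08 in WT. The call of SP1 ended without WT replicate 1 or 2 (adjusted p = 0.227 and 0.138) and with library size as the only scaling (0.204), and that of SP4 ended without TMEM9 KD replicate 1 (0.0874).

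Upstream regulators went both ways, with 3 of 16 tested genes higher and 5 lower (median log2 fold change 0.02). Fewer regulators were called higher without either WT replicate, and more without TMEM9 KD replicate 2. MAPK7, the kinase ERK5, and MEF2A, its substrate, act before KLF2 and KLF4 in endothelium. MAPK7 was at 9.32 ± 1.00 CPM in TMEM9 KD and 15.2 ± 0.736 CPM in WT, and MEF2A at 61.4 ± 4.37 CPM in TMEM9 KD and 82.8 ± 4.88 CPM in WT (SD, n = 2 each). Both thus fell, while KLF2 and KLF4 rose. MAP2K5, MEF2C and MEF2D of the same list did not pass the test, with log2 fold changes of 0.24, 0.13 and -0.11. The part of these regulators in the changes of KLF2 and KLF4 was not tested. TGFB1 and its receptor TGFBR2, which act before KLF10 and KLF11, fell with log2 fold changes of -0.44 and -0.69. SMAD2 and SMAD3, which carry the signal of that receptor, rose with log2 fold changes of 0.30 and 0.22. TGFBR1 (0.05) and SMAD4 (-0.07) did not pass the test. WWP1, a ubiquitin ligase that targets KLF2 and KLF5, fell by 0.60, and SMURF2 rose by 0.66. NR3C1, the glucocorticoid receptor that induces KLF9 and KLF15, averaged 275 CPM in TMEM9 KD and 277 CPM in WT (edgeR adjusted p = 0.896).

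Of 5 glucocorticoid-induced genes tested, 3 rose (FKBP5, SGK1, DUSP1) and 1 fell (PER1). DUSP1 had 48.8 ± 1.05 CPM in TMEM9 KD and 27.7 ± 3.72 CPM in WT, and PER1 had 13.9 ± 0.168 CPM in TMEM9 KD and 23.4 ± 0.33 CPM in WT (SD, n = 2 each). These genes thus went both ways, as KLF9 fell and KLF15 rose.

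Genes reported elsewhere as targets of KLF proteins were also listed. Of 21 listed, 15 were tested, 7 rose and 4 fell, with a median log2 fold change of 0.17. Over all genes tested 28.7% were higher and 29% lower. CDKN1A, the cell cycle inhibitor p21 that KLF4 and KLF6 can activate, had 26.1 ± 1.56 CPM in TMEM9 KD and 130.1 ± 0.749 CPM in WT (SD, n = 2 each). It fell, and the transcripts of both factors rose. CCND1, cyclin D1, which KLF4 can repress and KLF5 can activate, had 971 ± 23.3 CPM in TMEM9 KD and 546 ± 7.08 CPM in WT. MAOA, a monoamine oxidase gene that KLF11 can activate, fell by 1.90 on the log2 scale. THBD, thrombomodulin, a target of KLF2 in endothelial cells, fell by 1.02, and S1PR1, which Klf2 activates in mouse T cells, rose by 1.62 from a low level. LGALS3, which Klf3 represses in mice, fell by 1.40. The part of the KLF genes in the changes of these reported targets was not tested.

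**Figure D5:**
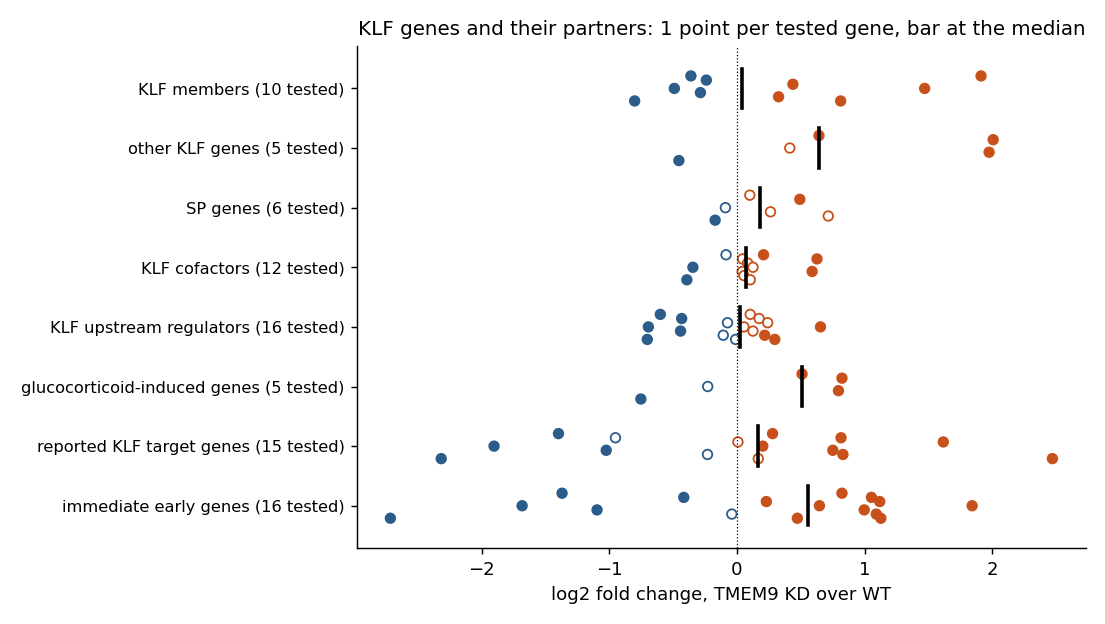
Log2 fold change of TMEM9 KD over WT for each tested gene (points, filled where the adjusted p is below 0.05) in the KLF genes and 6 lists of related genes, with a bar at the median of each list. Cofactors and SP genes lie between -0.4 and 0.8, while targets and immediate early genes spread from below -2 to above 1.8.

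Several KLF genes are immediate early genes, whose level also follows how cells are handled. Of 16 such genes tested, 10 rose and 5 fell (median log2 fold change 0.56), where 28.7% of all genes tested were higher and 29% lower. In DESeq2, which called 46.6% of all genes, 7 of these genes were higher and 5 lower. The summed level of the 16 was 1240 and 1320 CPM in TMEM9 KD and 1120 and 1110 CPM in WT. FOSL1 had 219 ± 13.0 CPM in TMEM9 KD and 61.0 ± 2.81 CPM in WT, while BTG2 had 1.94 ± 0.581 CPM in TMEM9 KD and 12.8 ± 0.353 CPM in WT (SD, n = 2 each). FOS fell by 1.37 on the log2 scale and EGR3 by 1.68, while EGR2 and FOSB rose by 1.13 and 1.12 from low levels. The part of handling in the changes of the KLF genes was not tested.

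Markers of other cell types were set beside the members because KLF2 and KLF4 are high in endothelium and KLF5 in basal epithelium. Of 8 endothelial markers in the table, 1 was tested (ERG, 12.8 CPM in TMEM9 KD and 14.4 in WT), and the others averaged below 0.5 CPM in both groups. The summed level of the 8, most of it ERG, was 15.8 and 12.9 CPM in TMEM9 KD and 15.2 and 14.2 CPM in WT. Among the markers too low to be tested, VWF had 7 and 8 counts in TMEM9 KD and 1 and 0 in WT, TIE1 had 7 and 5 in TMEM9 KD and 1 and 0 in WT, and CDH5 had 2 and 10 in TMEM9 KD and 0 and 1 in WT. These 3 were thus higher in both knockdown libraries, as KLF2 and KLF4 were, and with no expression filter 1 endothelial marker was called higher. CLDN5 had 4 and 6 counts in TMEM9 KD and 5 and 1 in WT, and EMCN had 0 and 2 in TMEM9 KD and 0 and 1 in WT, so their groups overlapped. KDR and TEK had at most 2 counts in a library. The part of the endothelial markers in the higher KLF2 and KLF4 was not tested. Of 12 basal epithelial markers all 12 fell, where 29% of all genes tested were lower. They summed to 735 and 742 CPM in TMEM9 KD and 1310 and 1330 CPM in WT, and KRT5 and KRT14 had no count in either knockdown library. ITGB4 fell to 2.61 CPM in TMEM9 KD, against 101.8 CPM in WT, and COL17A1 to 7.57 CPM in TMEM9 KD, against 88.3 CPM in WT. KRT6A, CDH3 and KRT17 had log2 fold changes of -6.48, -4.90 and -2.56. The part of the basal markers' decrease in the lower KLF5 was not tested. Of 12 leukocyte markers 3 were tested, 1 rose and 2 fell, with sums over the list of 5.37 and 6.53 CPM in TMEM9 KD and 13.2 and 14.2 CPM in WT. PTPRC, carried by leukocytes in general, rose to 4.20 CPM in TMEM9 KD, against 2.53 CPM in WT (edgeR adjusted p = 0.018), a call that ended in DESeq2, without WT replicate 1 and without TMEM9 KD replicate 1. CD14 fell to 12 and 29 counts in TMEM9 KD, against 93 and 150 in WT, and CD74 to 0 and 3 counts in TMEM9 KD, against 61 and 50 in WT. CD3E, MS4A1 and LYZ had no count in any library. The part of leukocyte transcripts in the higher KLF2 was not tested. Of 9 fibroblast markers tested, 4 rose and 4 fell, or 3 rose and 4 fell in DESeq2. The fibroblast list summed to 2060 and 2280 CPM in TMEM9 KD and 2510 and 2540 CPM in WT. COL3A1, THY1 and PDGFRA fell, with log2 fold changes of -4.94, -3.21 and -0.73, while DCN, COL1A1 and COL6A3 rose (0.75, 0.75 and 0.34). The call of DCN was the weakest of these (edgeR adjusted p = 0.0363). The series text calls the profiles retinal, which goes against the cell line named in every label, and of 10 photoreceptor markers 3 had no count in any library, GNAT1 and RCVRN among them. Of 3 that were tested 2 fell, or 1 in DESeq2 and without WT replicate 1 or TMEM9 KD replicate 2. The cone opsin gene OPN1SW was at 5.51 CPM in TMEM9 KD and 13.1 CPM in WT (edgeR adjusted p = 7.24e-10).

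Reads could be shared with similar loci. The table held 13 pseudogenes and non-coding loci named after KLF genes, of which 8 had no count and the most counted had 7 counts over the 4 libraries. KLF3-AS1, whose exons overlap those of KLF3 on the opposite strand, had 1 count. A gene antisense to KLF11 shares 416 exon bases with it in GENCODE 29 and was not analysed here, and since strand is not stated its reads cannot be told apart from those of KLF11.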

How the data were processed

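RNA of 2 TMEM9 KD and 2 WT libraries was measured by sequencing. The authors deposited raw counts per Ensembl gene, 1 column per library, unpooled. The submitters' processing notes list hg19 and mm8 as builds and, as tools, Bowtie 0.12.2 and CASAVA, with no roles. Counter, annotation and strandedness: not given in the sources used here. Symbols were found for 45342 of 48162 genes. GENCODE 29, of another build, gave exon lengths and overlaps, and no coordinates were taken from it.

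Counts were fitted in edgeR 4.0.16 (R 4.3.3) with TMM factors, filterByExpr (at least 10 counts, total of at least 15) and no covariate beside group, with Benjamini-Hochberg adjustment over 14923 genes. The SE is the absolute log2 fold change over the root of F. The TMEM9 KD pair had a chi-square per degree of freedom of 4.82 and the WT pair of 2.04, more than sampling noise, so no pair was merged into 1 sample, although that spread may be technical. The fit was tested on simulated data.

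Members and lists were chosen with earlier results of these data known. All members are named, and from each other list up to 6 called genes with the largest change and a mean of at least 1 CPM (every gene of the KLF and SP lists could be named). Others were singled out after their values were seen (SIN3A, NR3C1, TGFBR1, SMAD2, SMAD3, SMAD4, MAP2K5, MEF2C, MEF2D, ERBB2, ERG, VWF, TIE1, CDH5, CLDN5, EMCN, KDR, TEK and markers at or near 0). Alternatives were other scaling, filters, DESeq2 1.42.0, limma 3.58.1 voom, leaving out each library and a replicate block. A test against 1.5-fold was chosen after seeing the data. Some listed markers are not reported here.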

Additional observations from a re-analysis of the deposited data

How the results depend on the processing

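KLF2, KLF3, KLF4, KLF6, KLF9, KLF10, KLF11 and KLF13 kept their direction and their call under all the scalings, filters, tests against no change and left-out libraries that gave them a value (11 for KLF2, which a mean of at least 5 CPM left out, and 12 for the others). The log2 fold change ranged from 1.71 to 2.17 for KLF2, from 0.57 to 1.13 for KLF4, from -0.84 to -0.73 for KLF10 and from 1.28 to 1.71 for KLF11. In these settings only KLF5 and KLF7 lost their call, as given above, and neither changed sign. Against a change of 1.5-fold, 2803 genes (1111 higher, 1692 lower; 18.8%) were called, with 2 members higher (KLF2 and KLF11) and 1 lower (KLF10), since that test asks for a larger change. SP3 ranged from -0.193 (without TMEM9_KD replicate 1) to 0.00558 (without TMEM9_KD replicate 2), and SP5 from -0.413 (without WT replicate 1) to 1.87 (without WT replicate 2). Without TMEM9_KD replicate 1, SP3 was called (adjusted p = 0.00338), and without TMEM9_KD replicate 2, KLF8 was called (0.0221). With library size as the only scaling, 5 cofactors and 5 upstream regulators were higher, where the median of all genes moved to 0.081. Library numbers did not pair the samples (correlation of deviations 0.00048 over 14923 genes), and with the replicate block 8437 genes, 5 members higher and 5 lower were called. With 17 and 28 counts in WT, KLF2 has the widest SE of the members, and the fits that leave out a library assume that the lone library varies like the others.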
